A study of Sus scrofa with 9 samples.

Results

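Of 6 genes of drug and toxin handling, ABCG2, ABCB1, MGST1, GSTP1, GSTO1 and NQO1, the array measured 4, with 15 of its 43603 probes. The 4 are among 3052 genes that could be named on it. ABCG2 had 4 probes, MGST1 had 7, GSTO1 had 1 and NQO1 had 3, found through the transcript accession that each probe carries. No probe could be named as ABCB1 or GSTP1, so these 2 genes were not analysed here. Of the 15 probes, 10 passed the filter on dim signals and were tested. ABCG2 and MGST1 were chosen by their differences between fractions in earlier results of the same 9 arrays, so their values are a description. The others joined them for their function.

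The cells were T cells from the blood of sows, adult female pigs, isolated on a Percoll gradient and sorted into 3 fractions. These were CD3+CD4+CD8+ double positive cells (DP), CD3+CD4+ cells (CD4) and CD3+CD8+ cells (CD8), each measured on 3 single-colour Agilent arrays from 25 ng of amplified RNA. The labels call the arrays of a fraction biological replicates, and the sources used here do not give the sows' number, breed, age or treatment, or how pure the sort was. The p-values below measure only the spread between these arrays. In pigs, T cells carrying both coreceptors are common in blood, and the CD4 and CD8 gates are named only by the markers they carry. Of the sorting markers, CD4 averaged 2.14 in DP, 1.92 in CD4 and -2.04 in CD8, where 1 of 3 arrays read it well above background. CD8A averaged 3.47 in DP, 0.27 in CD4 and 5.35 in CD8, and all 9 arrays read it well above background. Those levels, like all levels below, are log2 of the signal over the array's 75th percentile, so that 0 is a signal at that percentile. That percentile was a signal of 15.2 to 84.1 units, and the share of probes well above background, a flag set by the scanner software, ran from 32.6% to 53.7%. DP array 1 was the only array on its slide, and the other 8 shared 2 slides.

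Cells rid themselves of foreign and reactive compounds in steps. Reductases such as NQO1, which reduces quinones, and oxidases modify the compound, transferases then attach glutathione to it, and pumps export the product. MGST1 is a membrane-bound glutathione transferase of the endoplasmic reticulum and outer mitochondrial membrane that also reduces lipid peroxides, GSTO1 is a soluble transferase of the omega class that reduces dehydroascorbate and removes glutathione from proteins, and ABCG2 is an ATP-driven exporter of drugs, urate and porphyrins, known in blood as a mark of stem cells. ABCB1 encodes P-glycoprotein, another drug pump, and GSTP1 the pi class transferase.

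MGST1, the membrane transferase, stood highest in CD8, lowest in CD4 and between them in DP on the 3 probes with any CD4 reading well above background. On 3 further tested probes CD8 was the highest and no CD4 reading was well above background. Of the 21 readings per fraction (7 probes on 3 arrays), 11 were well above background in DP, 6 in CD4 and 19 in CD8. Its leading probe, A_72_P035861, was the only one well above background on all 9 arrays. That probe read 1.30, 0.18 and 0.15 in DP, -1.12, -0.15 and -0.17 in CD4 and 2.52, 1.66 and 1.39 in CD8. No 2 fractions overlapped, and DP array 1 lay close to the lowest CD8 array. The means were 0.55 ± 0.66 in DP, -0.48 ± 0.56 in CD4 and 1.86 ± 0.59 in CD8 (SD, n = 3 each).

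**Figure D1:**
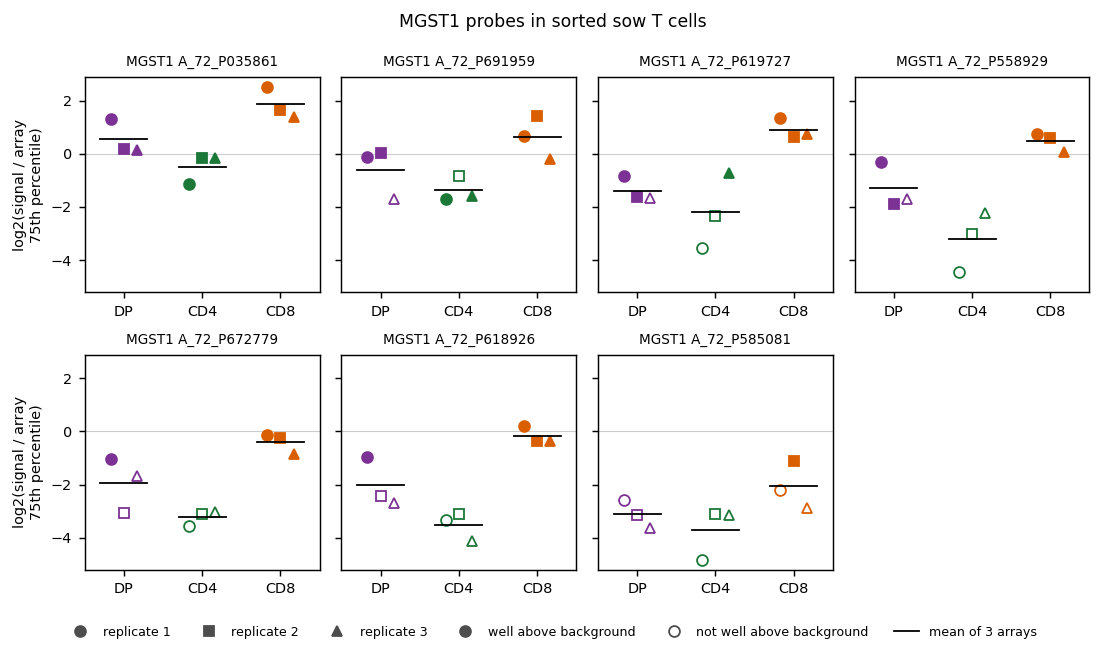
Level of each of the 7 MGST1 probes on the 9 arrays (log2 of signal over the array's 75th percentile, vertical axis) by sorted fraction. Filled symbols are well above background, open symbols are not, and lines are means of 3 arrays. On the 3 probes with filled CD4 symbols the mean is highest in CD8 and lowest in CD4.

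Set against CD8, CD4 was lower in MGST1 on all 6 tested probes, and the arrays of the 2 fractions did not overlap on any of them. Of all tested probes, 4.24% had CD4 wholly below CD8. The difference of the leading probe was -2.34 (SE 0.50, 5.06-fold), beside a median of -0.01 over all 16024 tested probes. One tested MGST1 probe, A_72_P558929, was called in this comparison at a Benjamini-Hochberg adjusted p under 0.05 over all tested probes, where 0.325% of all tested probes were called lower in CD4 (0.437% in either direction). These shares stand beside the count as background only, since the contrast chose the gene. The called probe read -4.44, -3.00 and -2.21 in CD4, against 0.75, 0.60 and 0.06 in CD8. None of its CD4 readings was well above background, so its fold has only a bound, at least 5.53-fold lower in CD4.

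That bound sets the mean of the 3 CD8 arrays against the lowest signal that counted as well above background on each CD4 array, or the probe's own signal where that was higher. The same bound gave at least 3.49-fold lower in CD4 for A_72_P618926 and at least 3.00-fold for A_72_P672779, also not well above background on the 3 CD4 arrays. The 2 remaining tested probes were well above background on some CD4 arrays, and their differences are as measured. A_72_P619727 differed by -3.10 (SE 0.68) with 1 of 3 CD4 arrays well above background, and A_72_P691959 by -2.01 (SE 0.61) with 2 of 3. All 6 tested probes had one direction. However, 5 of them passed the filter only through the CD8 arrays, so a lower level elsewhere was partly built into their selection.

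The call of A_72_P558929 rested on single arrays. It was lost without DP array 1 (measured difference -3.68), CD4 array 1 (-3.07) or 2 (-3.79), or CD8 array 1 (-3.54), 2 (-3.62) or 3 (-3.88), and kept without DP array 2 or 3 or CD4 array 3. It was also lost with the slide as a block (-3.58), with scaling to the percentile of detected probes (-3.60) and, at -0.78, with a background model that adds 50 units to every signal (normexp).

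Against CD4, the leading MGST1 probe was higher in DP by 1.03 (SE 0.50), with arrays that did not overlap. On A_72_P619727 and A_72_P691959 the differences were 0.81 (SE 0.68) and 0.78 (SE 0.61), and the arrays overlapped. On the probes without a CD4 reading well above background, the same calculation gave 1.63-fold higher in DP for A_72_P558929 and 1.05-fold for A_72_P672779. It gave no value for A_72_P618926. A_72_P558929 was well above background on 2 of 3 DP arrays and A_72_P672779 on 1 of 3, so these folds are not firm bounds. Against CD8, the leading probe was lower in DP by a difference of -1.31 (SE 0.50), with differences of -1.22 to -2.29 over the 6 tested probes and no overlap on 5 of them. On A_72_P672779 and A_72_P618926 only 1 of 3 DP arrays was well above background. No MGST1 probe was called in either comparison, where 0.293% of tested probes were called between DP and CD4 and 0.312% between DP and CD8. Over all tested probes the arrays did not overlap, with DP higher than CD4, for 5.22%, and with DP lower than CD8 for 5.2%. The 3 comparisons share arrays, so the middle place of DP is not independent of the gap between CD4 and CD8.

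Within DP the 3 arrays did not give the same level. DP array 1 was the highest DP array on 5 of the 6 tested MGST1 probes, and all 6 were well above background on it, against 4 on DP array 2 and 1 on DP array 3. On A_72_P558929 the DP arrays stood at -0.30, -1.89 and -1.70. Without DP array 1, DP minus CD4 was 0.65 and DP minus CD8 was -1.69 on the leading probe. Within slide 2 that probe gave 0.33 for DP minus CD4, -1.91 for DP minus CD8 and -2.24 for CD4 minus CD8. Within slide 3 it gave 0.80, -1.24 and -2.04 in the same order. On A_72_P691959, DP minus CD4 turned to -0.05 within slide 3.

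The MGST1 probes followed each other closely over the arrays. Pearson's r between pairs of tested probes was 0.717 to 0.969 with a median of 0.890 (15 pairs, 9 arrays each, as a description, since the probes share the arrays and their scaling and include readings near background). The seventh probe, A_72_P585081, was well above background on 1 CD8 array only and was not tested, so its fractions cannot be ordered.

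Markers of other cells were set beside this pattern. In bulk RNA, fewer cells of a type and less RNA per cell cannot be told apart. The B cell list had 3 of its 9 genes on the array, with a summed level (in multiples of the 75th percentile) of 0.437 to 2.86 in DP, 1.09 to 2.31 in CD4 and 5.40 to 12.4 in CD8. CD79A, part of the B cell antigen receptor, read 3.50, 2.39 and 3.56 in CD8, above every DP and CD4 array. The list of natural killer cells had 6 of its 8 genes on the array, with sums of 7.19 to 18.8 in DP, 2.92 to 3.89 in CD4 and 16.5 to 37.0 in CD8, and NCR1, its defining receptor, was never well above background. NKG7 made up 18.9% to 69.5% of that sum. KLRK1 averaged 2.22 in DP, -2.98 in CD4 and 3.39 in CD8, and NKG7 averaged 2.38, 0.78 and 2.83 in the same order. FCER1G averaged -0.33 in DP, -0.27 in CD4 and 2.00 in CD8, while TYROBP averaged -1.25, -1.31 and -0.87. KLRB1 was well above background on 1 CD8 array only. The list of monocytes and granulocytes had 8 of 13 genes, with sums of 39.1 to 97.2 in DP, 8.37 to 15.0 in CD4 and 26.0 to 57.5 in CD8, and S100A8 and S100A9, abundant in those cells, were never well above background. FCGR3A, an Fc receptor that natural killer cells also carry, made up 50.7% to 98.3% of that sum, and CD14, a monocyte coreceptor, averaged -1.59 in DP, -1.19 in CD4 and -2.17 in CD8. The part of these cells in the MGST1 levels was not tested.

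By likeness over the 9 arrays, CD8A, the coreceptor of cytotoxic T cells and one of the sorting markers, came first among 1499 other named genes (r = 0.913 with the leading MGST1 probe). CCR9, a chemokine receptor of gut-homing T cells, came next (r = 0.910), and HSPA6, an inducible heat shock protein, after it (r = 0.887). CCR9 averaged -1.04 in DP, -1.62 in CD4 and 0.35 in CD8, and HSPA6 averaged -0.43, -0.60 and 1.24 in the same order. Like MGST1, both were highest in CD8 and lowest in CD4, which selection by likeness makes likely. Neither was called in any comparison, and the likeness, a description, was not tested.

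ABCG2, the exporter, ran the other way in the single positive fractions, with the highest mean in CD4, then CD8, then DP on its 3 tested probes. Its readings were well above background in 7 of 12 cases in DP, 10 of 12 in CD4 and 7 of 12 in CD8. On the leading probe, A_72_P165136, the readings were -0.75, 0.11 and 0.51 in DP, 0.77, 2.21 and 2.63 in CD4 and -0.99, 1.11 and 1.35 in CD8. Every CD4 array lay above every DP array, and the CD8 arrays overlapped both. The means were -0.04 ± 0.64 in DP, 1.87 ± 0.97 in CD4 and 0.49 ± 1.29 in CD8 (SD, n = 3 each).

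**Figure D2:**
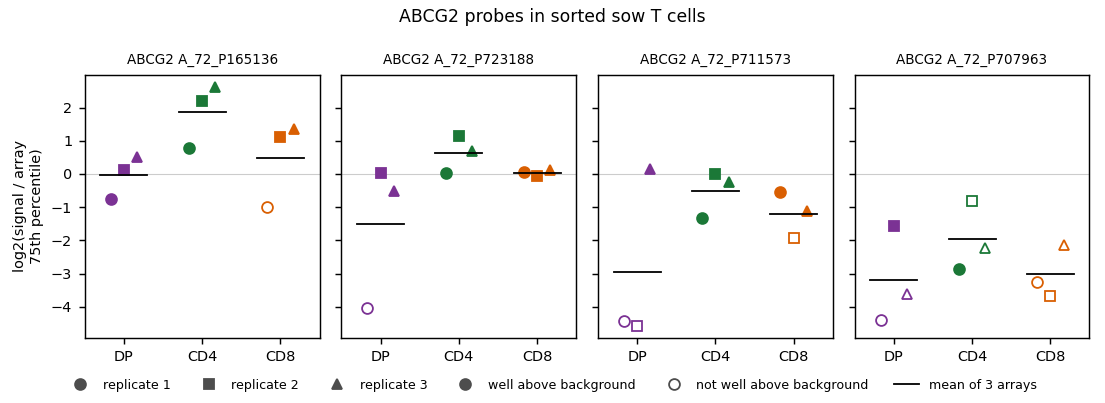
Level of each of the 4 ABCG2 probes on the 9 arrays (log2 of signal over the array's 75th percentile, vertical axis) by sorted fraction, with symbols as for MGST1. The CD4 mean is the highest on the 3 tested probes, and the DP arrays are far apart on A_72_P723188 and A_72_P711573.

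Against CD4, DP was lower in ABCG2 by differences of -1.91 (SE 0.67) on the leading probe, -2.13 (SE 0.84) on A_72_P723188 and -2.42 (SE 1.06) on A_72_P711573, which was well above background on 1 of 3 DP arrays. A_72_P711573 passed the filter only through the CD4 arrays, so the high place of CD4 on it was partly built into its selection. None of the 3 probes was called, where 0.0686% of all tested probes were called lower in DP. With the replicate number as a block the leading probe was called (limma adjusted p = 0.0445), but whether those numbers pair the arrays was not decided. The arrays did not overlap on the first 2 of these probes, where 4.89% of all tested probes had DP wholly below CD4, although on A_72_P723188 the highest DP array and the lowest CD4 array both stood at 0.03. Against CD8, DP gave -0.53 (SE 0.67), -1.54 (SE 0.84) and -1.75 (SE 1.06) on these 3 probes, with overlapping arrays on each. CD4 against CD8 gave 1.38 (SE 0.67), 0.59 (SE 0.84) and 0.68 (SE 1.06), again with overlap on each, where 3.78% of all tested probes had CD4 wholly above CD8. The neighbours in the order, CD4 and CD8, and CD8 and DP, did not separate beyond the spread between arrays. Its ends, CD4 and DP, did not pass the test without a block either (limma adjusted p = 0.553, 0.759 and 0.933 on the 3 probes).

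The ABCG2 probes parted from each other within DP. On A_72_P723188 the DP arrays stood at -4.03, 0.03 and -0.52, and on A_72_P711573 at -4.43, -4.57 and 0.16. DP array 2 was well above background on the leading probe and on A_72_P723188, with signals of 45.9 and 43.3 units, while A_72_P711573 gave 1.79 units, the lowest value that array holds. DP array 3 was well above background on all 3 tested probes, and DP array 1 on the leading probe alone. The CD4 arrays were well above background on all 9 readings of the tested probes, at -1.32 to 2.63.

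Pearson's r between the 3 pairs of tested ABCG2 probes was 0.509, 0.628 and 0.630 over 9 arrays (a description), below the lowest value among the MGST1 pairs. Without DP array 1, the order of the fractions was the same on all 3 tested probes, but DP minus CD4 shrank to between -0.87 and -1.68 and DP minus CD8 to between -0.18 and -1.01. Without DP array 3, A_72_P711573 was called between DP and CD4, but both remaining DP readings were the lowest signals of their arrays, so no fold is given. Within slide 3, which holds DP array 3, that probe turned to 0.94 between DP and CD4 and 1.30 between DP and CD8. Within slide 2 the leading probe and A_72_P723188 gave 0.05 and 0.03 between DP and CD8.

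The fourth ABCG2 probe, A_72_P707963, was well above background on DP array 2 and CD4 array 1 and nowhere else, was not tested, and cannot order the fractions. ABCG2 is abundant in red cell precursors and in some vessel walls. The list of red cells had 2 of 9 genes on the array, with KLF1 never well above background and EPOR well above it on 2 CD4 arrays only. Its summed level was 0.0841 to 0.287 in DP, 0.177 to 0.430 in CD4 and 0.156 to 0.227 in CD8. The endothelial list had 3 of 5 genes, with CDH5 and VWF never well above background, and sums of 0.312 to 0.964 in DP, 0.554 to 1.01 in CD4 and 0.234 to 1.12 in CD8. Their part in the ABCG2 levels was not tested.

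The genes most like the leading ABCG2 probe over the 9 arrays were STAT2, a transcription factor of interferon signalling (r = 0.873), GNAQ, a G protein subunit (r = 0.861), and GSTA4, a glutathione transferase of lipid peroxidation products (r = 0.858). They were the top 3 among 1499 other named genes, so this is a description, and the likeness was not tested. Each was highest in CD4, which selection by likeness makes likely. STAT2 averaged -0.64 in DP, 0.26 in CD4 and -0.11 in CD8, and GNAQ averaged 1.47, 2.46 and 1.51 in the same order. None of the 3 was called in any comparison.

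GSTO1, the omega class transferase, was well above background on all 9 arrays, and no difference between fractions passed the test. Its single probe read 0.52, 0.31 and -0.32 in DP, 0.06, 0.49 and 0.43 in CD4 and 0.52, 0.71 and -0.36 in CD8. All 3 fractions overlapped, with means of 0.17 ± 0.44 in DP, 0.33 ± 0.23 in CD4 and 0.29 ± 0.57 in CD8 (SD, n = 3 each). The difference was -0.15 between DP and CD4 (95% interval -1.15 to 0.84, limma adjusted p = 1.00), -0.12 between DP and CD8 (-1.11 to 0.87, adjusted p = 1.00) and 0.03 between CD4 and CD8 (-0.96 to 1.03, adjusted p = 0.999). These intervals reach about 1 log2 unit in either direction, so equality was not shown.

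**Figure D3:**
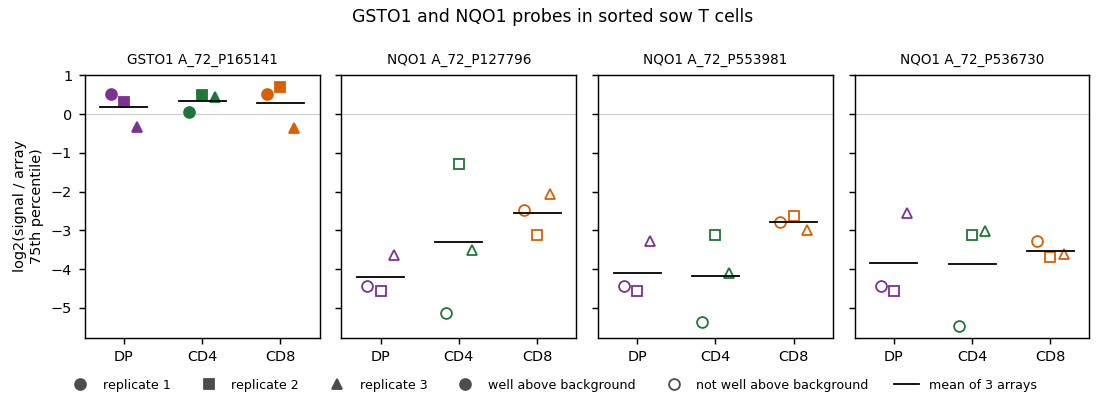
Levels of the GSTO1 probe and the 3 NQO1 probes on the 9 arrays (log2 of signal over the array's 75th percentile, vertical axis) by sorted fraction, with symbols as for MGST1. GSTO1 is well above background on all 9 arrays and its fractions overlap, and every NQO1 symbol is open.

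NQO1, the quinone reductase, was not well above background in any of 27 readings (3 probes on 9 arrays). Its signals were 1.53 to 3.26 units in DP, 1.67 to 6.26 in CD4 and 1.89 to 7.17 in CD8, where the lowest signal counted as well above background was 6.86 to 9.43 units, depending on the array. Of the readings, 7 of 9 in DP, 3 of 9 in CD4 and 2 of 9 in CD8 lay within 2% of the lowest signal on their array. The level of NQO1 was therefore not detectable by these probes, and no fraction can be set above another.

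**Figure D4:**
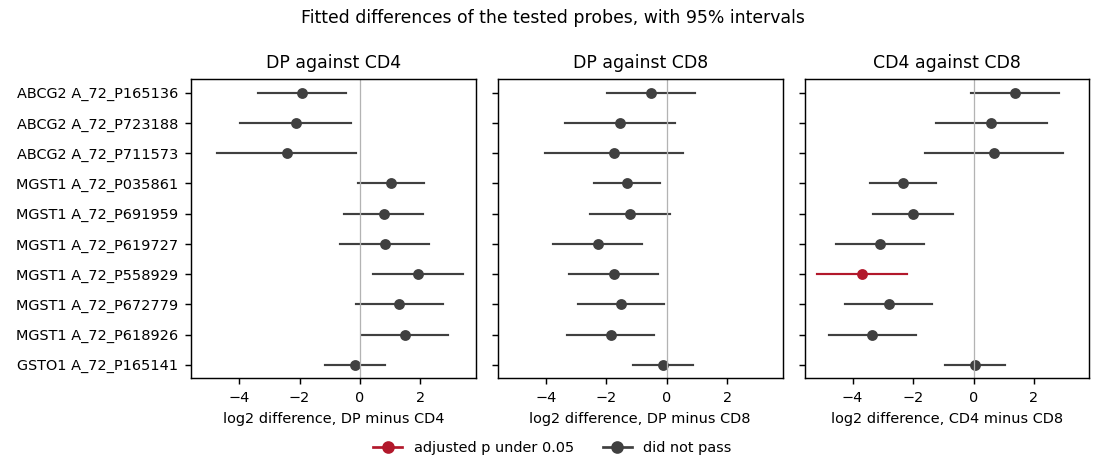
Fitted log2 difference (point) and 95% interval (line) of the 10 tested probes in the 3 comparisons of sorted fractions. One MGST1 probe, between CD4 and CD8, has an adjusted p under 0.05. A_72_P558929, A_72_P672779 and A_72_P618926 were not well above background in CD4, so their points in comparisons with CD4 are measured differences of uncertain size. Bounds between CD4 and CD8 are given in the text.

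The wider machinery showed no called gene. The lists held 187 genes of detoxification and oxidant defence in 6 groups, chosen with earlier results of these data known, and 66 were on the array, 30 of them tested on their leading probe. None of the 30 was called in any comparison, nor was any of their 97 tested probes, with lowest adjusted p of 0.296 between DP and CD4, 0.796 between DP and CD8 and 0.659 between CD4 and CD8 (limma). At an unadjusted p under 0.05 there were 5, 0 and 1 genes in these comparisons, where 4.84%, 6.52% and 4.54% of all tested probes reached it. The medians over the 30 genes were -0.19, -0.10 and 0.01, beside -0.02, -0.03 and -0.01 over all tested probes.

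Of the other glutathione transferases, 5 of 21 were on the array and GSTA4, GSTZ1 and MGST3 were tested. GSTA4 read -1.45, 0.39 and 1.33 in DP, 1.44, 1.59 and 2.03 in CD4 and -0.28, 1.71 and 1.91 in CD8. All DP arrays lay below all CD4 arrays, with a difference of -1.60 (SE 0.71, adjusted p = 0.963), and DP minus CD8 was -1.03 (SE 0.71, adjusted p = 0.970). GSTZ1, which works in tyrosine breakdown, gave 0.70 (SE 0.62, adjusted p = 0.999) between CD4 and CD8. MGST3, a membrane transferase like MGST1, averaged 4.21 ± 0.68 in DP, 3.95 ± 0.43 in CD4 and 3.91 ± 0.13 in CD8 (SD, n = 3 each), and its fractions overlapped, unlike those of the leading MGST1 probe. The contrast between the genes was not tested.

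In glutathione synthesis and redox, 8 of 22 genes were on the array and 3 were tested, with medians of 0.27 between DP and CD4, -0.22 between DP and CD8 and -0.50 between CD4 and CD8. GPX1, the cytosolic glutathione peroxidase, read 7.08, 5.98 and 5.53 in DP, 4.49, 4.83 and 3.61 in CD4 and 6.87, 5.97 and 4.81 in CD8. All DP arrays lay above all CD4 arrays. DP minus CD4 was 1.89 (SE 0.55, adjusted p = 0.296), and CD4 minus CD8 was -1.57 (SE 0.55, adjusted p = 0.659), so GPX1 did not pass. GPX4, which protects membranes from lipid peroxides, gave -0.22 (SE 0.34, adjusted p = 1.00) between DP and CD8.

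Oxidant defence and the NRF2 pathway, whose master factor switches on genes such as NQO1, had 15 of 28 genes on the array and 13 tested, with medians of -0.30, -0.17 and -0.15 in the 3 comparisons. SOD1, the cytosolic superoxide dismutase, gave -0.90 (SE 0.35, adjusted p = 0.718) between DP and CD4. PRDX5, a peroxiredoxin, gave -0.91 (SE 0.43, adjusted p = 0.796) between DP and CD8. Thioredoxin, TXN, gave -0.86 (SE 0.44, adjusted p = 0.999) between CD4 and CD8. Of the 13, 5 differences were positive between DP and CD4 and 4 in each of the other comparisons.

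**Figure D5:**
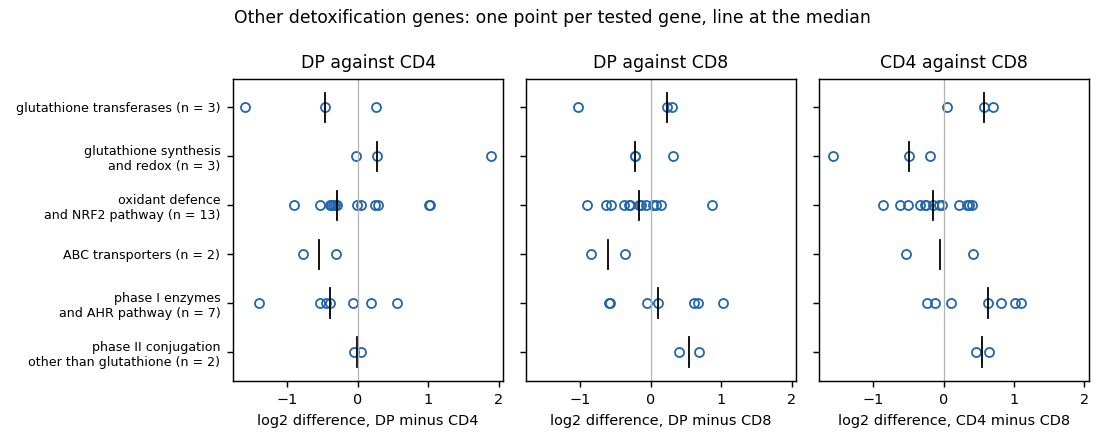
Log2 differences of the 30 tested genes of the 6 lists in the 3 comparisons of sorted fractions (1 open circle per gene, line at the list's median). None of the 30 genes was called.

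Among other ABC transporters, 2 of 39 were on the array. ABCF1, a family member of the ribosome and not a pump, gave -0.78 (SE 0.54, adjusted p = 1.00) between DP and CD4 and 0.42 (SE 0.54, adjusted p = 0.999) between CD4 and CD8. ABCD3, a peroxisomal fatty acid transporter, gave -0.84 (SE 0.71, adjusted p = 1.00) between DP and CD8. ABCG2 was the only exporter of drugs among the transporters with a named probe.

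Of the phase I enzymes, 28 of 53 genes were on the array, 12 of them not well above background anywhere, and 7 were tested. ALDH2, the mitochondrial aldehyde dehydrogenase, read 0.30, -0.66 and 0.47 in DP, against 1.70, 1.68 and 0.96 in CD4. These arrays did not overlap, and the difference of -1.41 (SE 0.45, adjusted p = 0.399) did not pass. AKR1B1, an aldose reductase, gave 1.03 (SE 0.76, adjusted p = 0.988) between DP and CD8, and POR, the electron donor of cytochrome P450 enzymes, gave 1.01 (SE 0.53, adjusted p = 0.999) between CD4 and CD8. Of 8 further conjugating enzymes on the array, 5 were not well above background anywhere and 2 were tested. SULT1A3, a sulfotransferase, gave -0.06 (SE 0.60, adjusted p = 1.00) between DP and CD4.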

How the data were processed

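RNA of 3 sorted fractions of sow blood T cells was measured on 9 single-colour arrays, 3 per fraction. Per the file headers, Agilent Feature Extraction 11.0.1.1 wrote the deposited scanner files. Per the file headers, their processed signal is a deposited linear intensity from which background and spatial trend were removed, with no scaling across arrays. The deposited value table is on a log2 scale with the same median of 2.60 in all 9 columns. The sources used here do not name its program, and its 3 CD8 columns hold each other's arrays. It served as an alternative.

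Each level is log2 of a probe's processed signal less log2 of the 75th percentile of non-control probes on that array. Outlier spots (1 to 12 per array) were left out, spots of a probe were averaged, and none was saturated. A probe was tested if well above background on all 3 arrays of a fraction and with at least 2 values per fraction, which left 16024 of 43603. Probes were named through unversioned accessions in the annotation of Sscrofa11.1 (6730 probes, 3052 genes). The files name no build, so coordinates are left out.

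The comparisons were run in limma 3.58.1 (R 4.3.3), lmFit and eBayes with a variance trend, all 9 arrays in one fit without a block, two-sided, Benjamini-Hochberg adjusted over all tested probes at 0.05. The fit was tested on simulated data. The members and gene lists were chosen with earlier results of these data known. The leading probe of a gene was the one well above background on most arrays, then with the highest mean. Of each list, up to 4 called genes or else the one with the smallest p were named per comparison, and the 3 named genes with the highest r to ABCG2 and to MGST1. Some results that the rule names are not reported here. MGST3, and the markers named, were chosen after their values were seen. The number of arrays limits the precision. Alternatives were other background corrections, scalings and filters, blocks by replicate number and slide, and each array left out. Figures were drawn with matplotlib 3.10.9.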

Additional observations from a re-analysis of the deposited data

How the results depend on the processing

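Leaving out an array of the fraction not compared, dropping the filter or the variance trend, and adding the replicate block cannot move a probe's difference, so signs kept there are no support. Besides the slide values in the report, A_72_P711573 of ABCG2 turned to -0.05 between CD4 and CD8 with normexp. The called MGST1 count between CD4 and CD8, 1, was 0 with normexp (run on median signals, since the files hold no mean signal, and chosen after seeing the data; the planned form was not run), with the percentile over detected probes and with the slide block, 3 without the filter and 3 without the variance trend, and 0 to 2 with 1 array left out. Between DP and CD4 the count of called probes of the 6 genes, 0, was 1 with the replicate block (the leading ABCG2 probe, adjusted p = 0.0445) and 0 to 1 with 1 array left out, and between DP and CD8 it was 0 throughout. GSTO1 turned to 0.012 (DP against CD4) and 0.0151 (DP against CD8) with normexp. In the 3 comparisons it ran from -0.33 to 0.0925, -0.45 to 0.125 and -0.292 to 0.24 with 1 array left out.

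Over all tested probes the calls were 47 between DP and CD4, 50 between DP and CD8 and 70 between CD4 and CD8. They were 1, 7 and 6 with normexp, 144, 83 and 110 with the replicate block, 2, 2 and 38 with the slide block (DP array 1, alone on its slide, then adds nothing), and 109 and 87 in the first and second without the filter. In the second they were 22 with the percentile over detected probes and 24 in the value table. With 1 array left out they ran from 2 to 54, 1 to 51 and 31 to 83, lowest without DP array 1, DP array 1 and CD8 array 2. Normexp shifted the median difference by 0.14 between DP and CD8 and by 0.13 between CD4 and CD8. The cause of these changes was not tested. In the check of the replicate numbers, deviations from the fraction mean correlated at -0.20 to 0.73 over the 9 same-numbered pairs. Of these, 7 were over 0.1 and 2 below 0. The pairs with different numbers ran from -0.67 to 0.54 and were mostly below 0. Deviations cancel within a fraction, so these values are not independent of those of the same-numbered pairs. Whether the numbers pair the arrays was therefore not decided, and the main fit did not pair them. Same-numbered scanner files also share a sample number of unstated meaning, and the value table numbers the CD8 arrays differently. The replicate block moved the MGST1 count between CD4 and CD8 to 2. Most probes of these genes lie near background, which limits every fold.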
